A study of Mus musculus with 24 samples.

Results

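Col4a2, Hsf1, Ros1, Nipa2 and Plag1 are 5 protein-coding genes whose counts were far higher in RNA recovered with the TET2 protein than in the matching input RNA. They are 5 of the 53900 rows of the count tables and 5 of the 8670 protein-coding rows tested in the CLIP libraries. They were chosen by the readout described here, as the largest rises with the smallest p-values among protein-coding rows in TET2 CLIP over input. Their rise in that comparison is therefore given as a description, with no test.

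CLIP (crosslinking and immunoprecipitation) fixes proteins to the RNA they touch in living cells, pulls down 1 protein and sequences the RNA that comes with it. TET2 is a dioxygenase that oxidises 5-methylcytosine in DNA to 5-hydroxymethylcytosine and can do the same in RNA, where the product is called hm5C. In mouse embryonic stem cells, the cells used here, TET2 is expressed together with TET1. A row of the tables gives a total for a gene, so the position of the reads within each gene is not resolved.

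The CLIP groups were TET2 CLIP of clone 75, TET2 CLIP of clone 65, CLIP input of clone 75 and CLIP input of clone 65, with 2 biological replicates each. Both clones are E14 cells carrying a His-HA tag on Tet2 (Tet2HA-His), and each is a single clone. The cells of all 8 libraries, inputs included, received 4SU at 500 µM for 4 h and 400 mJ/cm2 of UVB, and every culture grew with LIF and the inhibitors PD0325901 (1 µM) and CHIR99021 (3 µM). The sample labels do not say whether an input and a TET2 CLIP library of the same clone and replicate number shared a culture. The hm5C RIP libraries (immunoprecipitation of RNA carrying hm5C) and their RIP inputs, 2 each, came from untreated embryonic stem cells of strain B6;129. CLIP of untagged cells was not analysed here, so recovery that does not depend on TET2 was not measured.

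Library totals were 221060 to 453944 counts in TET2 CLIP and 913002 to 4729463 in CLIP input. They were 1564014 and 2100187 in hm5C RIP and 4641963 and 4889943 in RIP input. In the CLIP libraries, 8.99% of the 10334 tested rows were higher in TET2 CLIP and 5.83% were lower, at an adjusted p under 0.05 (edgeR). All 10 embryonic stem cell markers examined were detected well enough to be tested, and their summed level was 1994 to 2893 CPM in TET2 CLIP and 2292 to 2732 CPM in input. Zfp42 among them was higher (0.62 on the log2 scale) and Dppa5a lower (-0.90). The call on Zfp42 was lost without either TET2 CLIP library of clone 65 or the second of clone 75 (adjusted p 0.0602 to 0.239) and with no count filter (0.367), where 6 of the 10 were lower, and that on Dppa5a without the second clone 75 input (0.0537). CPM are counts per 1000000 counts in the tested rows, after TMM scaling.

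Hsf1 and Plag1 encode transcription factors. Hsf1 is the heat shock factor that switches on chaperone genes when proteins misfold. Its RefSeq span (row ENSMUSG00000022556) is chr15:76477362-76501155 in GRCm38.p6, the assembly known as mm10. The annotation used for counting is not given, so the bases counted for each row may differ from the RefSeq span. Hsf1 stood at 1974 and 2150 CPM in TET2 CLIP of clone 75 and at 7937 and 4586 CPM in TET2 CLIP of clone 65, against 122.6 and 141.5 CPM in clone 75 inputs and 107.5 and 96.51 CPM in clone 65 inputs. The lowest TET2 CLIP library thus lay far above the highest input, and the first clone 65 library was the highest of all. The change was 4.94 on the log2 scale (SE 0.17), a 30.8-fold higher level. By raw count, Hsf1 ranked 2 and 3 among protein-coding rows in the TET2 CLIP libraries of clone 75 and 1 in both of clone 65, against ranks from 675 to 1211 in the 4 inputs.

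Plag1 is a zinc finger transcription factor, first known from salivary gland tumours in humans, that promotes growth. Its RefSeq span (row ENSMUSG00000003282) is chr4:3898769-3938430. Plag1 stood at 249.8 and 350.4 CPM in TET2 CLIP of clone 75 and at 779.8 and 673.6 CPM in TET2 CLIP of clone 65, against 21.1 and 24.87 CPM in clone 75 inputs and 26.09 and 27.1 CPM in clone 65 inputs. The inputs of both clones lay close together and the TET2 CLIP libraries did not overlap them. The change was 4.18 (log2, SE 0.14), or 18.1-fold.

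Col4a2 encodes the α2 chain of type IV collagen, the network-forming collagen of basement membranes. Its RefSeq span (row ENSMUSG00000031503) is chr8:11312805-11449287. Col4a2 stood at 632.4 and 864.1 CPM in TET2 CLIP of clone 75 and at 2041 and 1563 CPM in TET2 CLIP of clone 65, against 30.33 and 36.82 CPM in clone 75 inputs and 21.43 and 16.85 CPM in clone 65 inputs. The change was 5.49 (log2, SE 0.15), or 45.0-fold. Its inputs differed more between the clones than those of Plag1, yet stayed far below any TET2 CLIP library.

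Ros1 encodes a receptor tyrosine kinase of the cell surface, known in mice for its role in the epididymis and in humans as a fusion oncogene. Its RefSeq span (row ENSMUSG00000019893) is chr10:52044863-52195398. Ros1 was scarce before immunoprecipitation, with 15 counts in the 4 inputs together, against 346 counts in the 4 far smaller TET2 CLIP libraries. In CPM it stood at 218.3 and 282.7 in TET2 CLIP of clone 75 and at 514.4 and 437.0 in TET2 CLIP of clone 65, against 1.319 and 2.869 in clone 75 inputs and 0.6212 and 1.099 in clone 65 inputs. The change was 7.74 (log2, SE 0.23), or 213.6-fold, with its input side resting on those 15 counts. This SE, taken from the F statistic of the fit, can understate the error of a large change on few counts.

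Nipa2 encodes a magnesium transporter of the plasma membrane and early endosomes. Its RefSeq span (row ENSMUSG00000030452) is chr7:55931266-55962493. Nipa2 stood at 364.6 and 477.9 CPM in TET2 CLIP of clone 75 and at 1278 and 1013 CPM in TET2 CLIP of clone 65, against 36.92 and 38.73 CPM in clone 75 inputs and 39.76 and 41.94 CPM in clone 65 inputs. The change was 4.11 (log2, SE 0.13), or 17.3-fold. Of the 5 genes it had the steadiest input level, at 39.3 ± 2.09 CPM, beside 783 ± 434 CPM in TET2 CLIP (SD, n = 4 each).

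**Figure D1:**
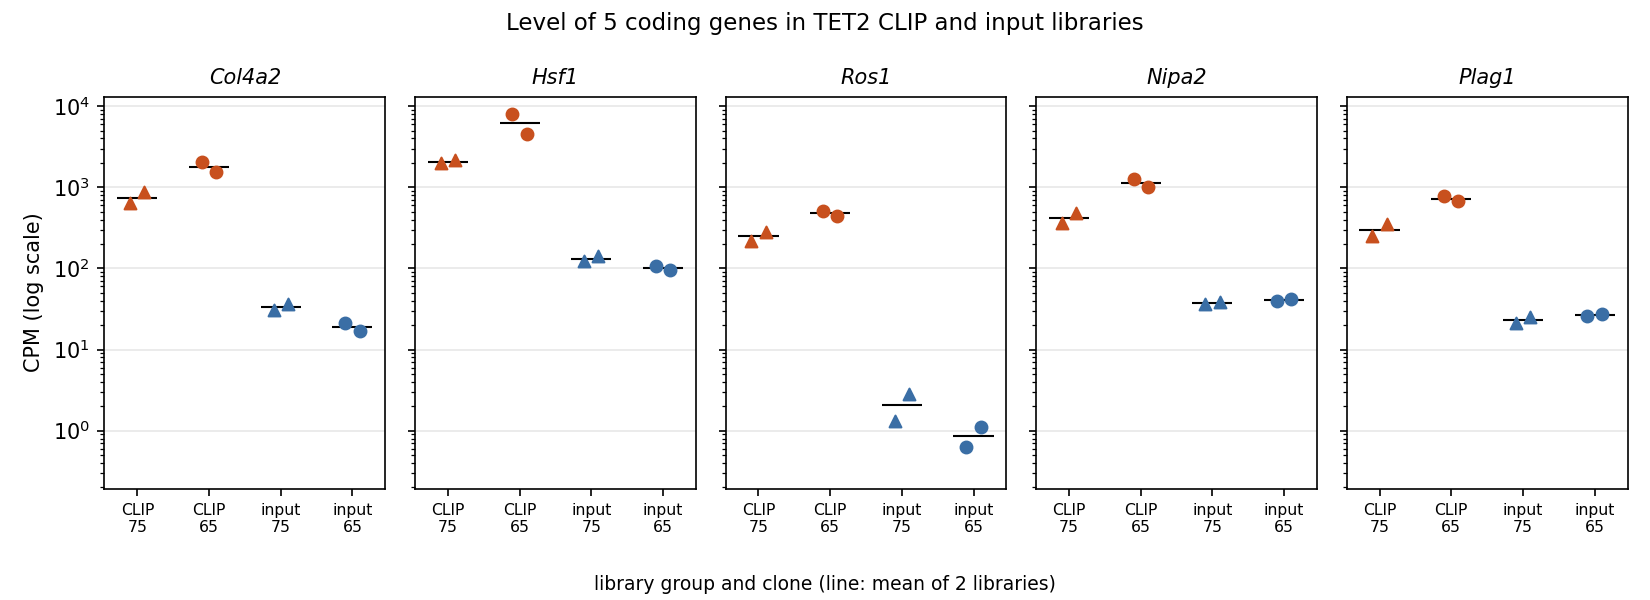
CPM on a log axis for each of the 5 genes in every CLIP-part library, by group and clone, with a line at the mean of 2 libraries. TET2 CLIP libraries (orange) lie above every input (blue) for all 5 genes, and within TET2 CLIP those of clone 75 lie below those of clone 65.

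Each gene had the same order of groups at the top, with TET2 CLIP of clone 65 above TET2 CLIP of clone 75 and both above the inputs. The 2 libraries of a group never overlapped those of the next group in that order. Below them, clone 75 inputs stood above clone 65 inputs for Col4a2, Hsf1 and Ros1, and clone 65 inputs stood above clone 75 inputs for Nipa2 and Plag1. Over both clones, Col4a2 averaged 1275 ± 646 CPM in TET2 CLIP and 26.4 ± 8.94 CPM in input, and Hsf1 averaged 4162 ± 2785 CPM in TET2 CLIP and 117 ± 19.5 CPM in input (SD, n = 4 each). Ros1 averaged 363 ± 136 CPM in TET2 CLIP and 1.48 ± 0.973 CPM in input, and Plag1 averaged 513 ± 253 CPM in TET2 CLIP and 24.8 ± 2.63 CPM in input. These levels are not divided by transcript length, so they and the ranks by count describe reads and are not compared between genes.

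Among protein-coding rows, 4.44% were higher in TET2 CLIP, which is 385 of 8670, and 2.87% were higher with no overlap between TET2 CLIP and input libraries. The 5 genes belong to both sets by the way they were chosen. By p they ranked 1 to 5 in the order Col4a2, Ros1, Nipa2, Hsf1 and Plag1. By size of change among the 385, Ros1 ranked 2, Col4a2 6, Hsf1 8, Plag1 12 and Nipa2 14. Just outside the group by p stood Usp15, a deubiquitinase gene, with a change of 3.18 (log2, SE 0.13) and 741 CPM in TET2 CLIP against 70.8 CPM in input. After it came Slc17a3, which had 210 CPM in TET2 CLIP but only 2 counts in the inputs, so no fold is given. Nav2 (3.68), Gucy2e (5.46) and Pls1 (3.77) followed, and the change of Gucy2e exceeded that of Hsf1, Plag1 and Nipa2.

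**Figure D2:**
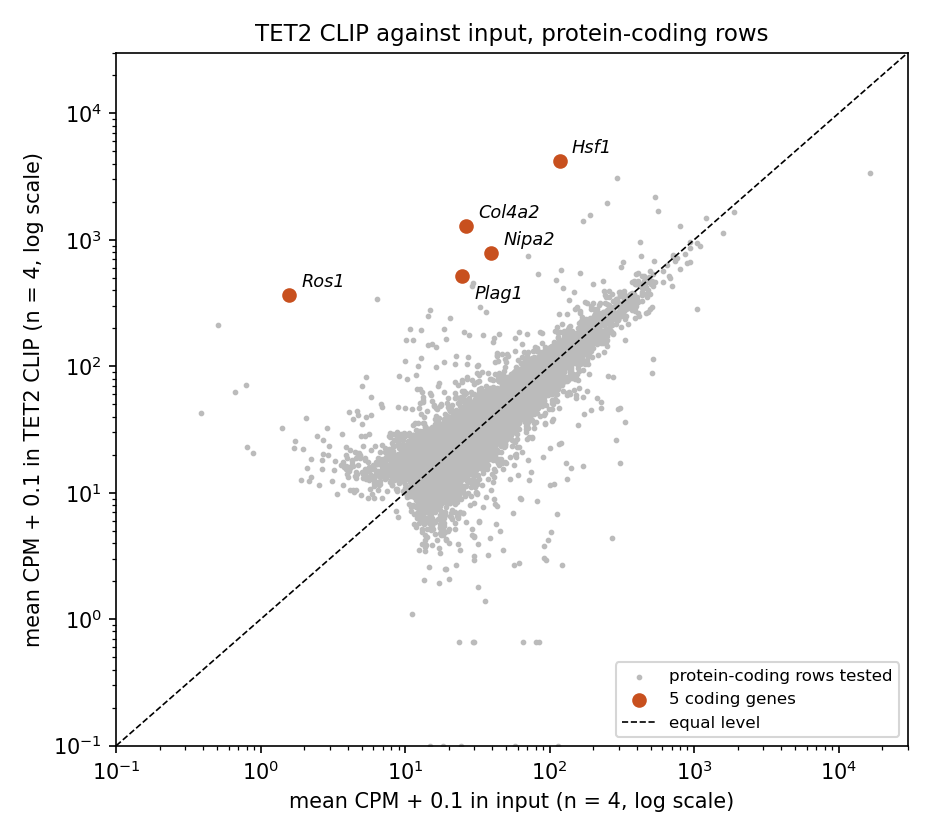
Mean CPM plus 0.1 in TET2 CLIP (y axis) against input (x axis), n = 4 each, both on log axes, for all tested protein-coding rows (grey) with the 5 genes marked in orange and a dashed line of equal level. All 5 genes lie well above the dashed line, Ros1 farthest with 363 CPM in TET2 CLIP against 1.48 CPM in input and Nipa2 nearest with 783 CPM in TET2 CLIP against 39.3 CPM in input.

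Together the 5 genes took 0.371% ± 0.0493 of all counts in TET2 CLIP of clone 75 and 0.873% ± 0.216 in TET2 CLIP of clone 65, against 0.0201% ± 0.00343 in clone 75 inputs and 0.0212% in clone 65 inputs (SD, n = 2 each). Hsf1 made up 57.0% ± 4.66 of that sum in TET2 CLIP and 55.8% ± 2.51 in input (SD, n = 4 each). Ros1 made up 5.64% ± 1.22 of the sum in TET2 CLIP and 0.677% ± 0.356 in input. Nipa2 went the other way, with 11.2% ± 0.915 in TET2 CLIP and 19.1% ± 3.14 in input, as did Plag1 with 7.53% ± 1.02 in TET2 CLIP and 12.1% ± 2.4 in input.

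Whether the rise depended on the clone was a contrast that had not been used to choose the genes, although it rests on the same 8 libraries. The fitted change was smaller in clone 75 than in clone 65 for each of the 5, and the difference passed its test for 4. The log2 change of Col4a2 was 4.41 in clone 75 and 6.58 in clone 65, and that of Hsf1 was 3.95 in clone 75 and 5.94 in clone 65. For Ros1 it was 6.59 in clone 75 and 8.89 in clone 65, for Nipa2 3.43 in clone 75 and 4.80 in clone 65, and for Plag1 3.60 in clone 75 and 4.76 in clone 65. The difference was -2.17 for Col4a2 (SE 0.31, adjusted p = 4.44e-05) and -1.99 for Hsf1 (SE 0.30, adjusted p = 7.52e-05) by edgeR's quasi-likelihood test, and both kept that call in every alternative run. Of all tested rows, 2.22% had a smaller change in clone 75 at that threshold.

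For Nipa2 the difference was -1.37 (SE 0.27, adjusted p = 0.00246, edgeR). Its call was lost with library size alone (-0.79, adjusted p = 0.0814), without the first clone 65 input (-1.30, adjusted p = 0.0501) and without the second clone 75 input (-1.29, adjusted p = 0.155). For Plag1 the difference was -1.16 (SE 0.30, adjusted p = 0.0325, edgeR), and that call was lost in 9 alternatives. They included leaving out any one of the 4 inputs, the first TET2 CLIP library of clone 65 or the first of clone 75, with adjusted p from 0.0664 to 0.52. For Ros1 the difference of -2.30 (SE 0.88, 95% interval -4.03 to -0.58) did not pass after adjustment over all rows (adjusted p = 0.187, edgeR), and its few input counts set the width of that interval.

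**Figure D3:**
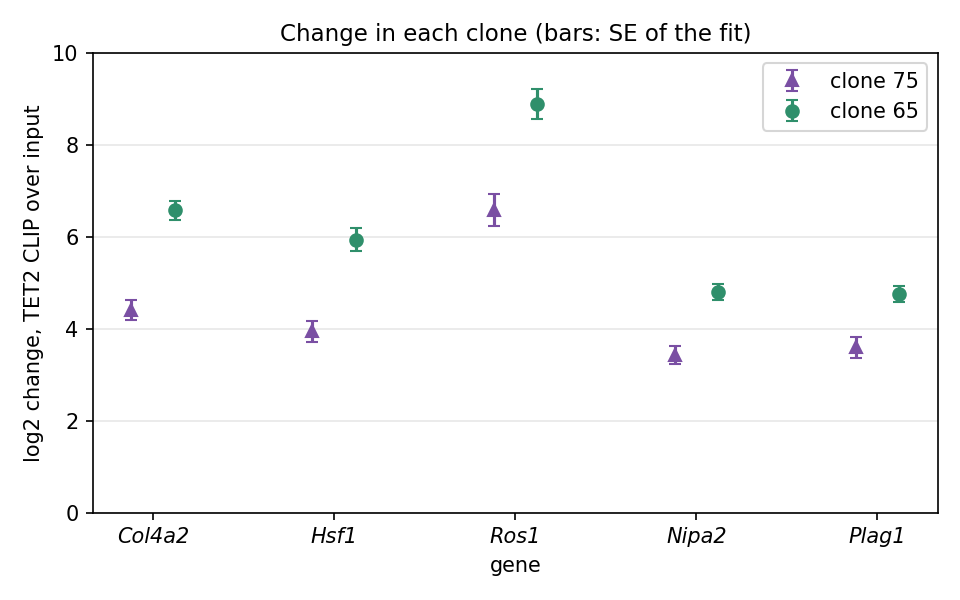
Log2 change of TET2 CLIP over input in clone 75 (triangles) and clone 65 (circles) for each of the 5 genes, with bars of 1 SE from the fit. For each gene the clone 75 point lies below the clone 65 point, by 1.16 (Plag1) to 2.30 (Ros1) on the log2 scale. The bars of Ros1, which had few input counts, can understate the error.

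A smaller change in clone 75 was common among rows raised in TET2 CLIP. The 380 other protein-coding rows raised in TET2 CLIP had a median difference of -0.66, 81.1% of them lay below 0, and 11.8% passed the test with a smaller change in clone 75. Over all tested rows the median difference was 0.024, with 48.9% below 0. Of the 9 other protein-coding rows whose change was at least that of Nipa2, the smallest of the 5, all 9 lay below 0, with a median of -2.49, and 1 passed. Scaling by library size alone moved the median difference of all rows to 0.60, and Col4a2 then stood at -1.58 and Hsf1 at -1.40.

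The inputs give the level of these transcripts before immunoprecipitation. In clone 75 over clone 65 inputs, Col4a2 was higher by 0.88 (log2, SE 0.25, 95% interval 0.39 to 1.38, adjusted p = 0.0278, edgeR). That call was lost with library size alone (0.53, adjusted p = 0.135), with the DESeq2 Wald test (0.86, adjusted p = 0.112), with no count filter (0.77, adjusted p = 0.0941) and without any one of the 4 inputs, with adjusted p from 0.0602 to 0.766. The differences were 0.39 for Hsf1 (adjusted p = 0.388), 1.34 for Ros1 (0.439), -0.10 for Nipa2 (0.864) and -0.17 for Plag1 (0.804), none of which passed. For Nipa2 the 95% interval ran from -0.5 to 0.3. Of all rows, 6.9% differed between the inputs in either direction, and 1 of 5 genes is not set apart from that share. In bulk RNA, fewer cells expressing a gene and less of its RNA per cell cannot be told apart.

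None of the 6 tested genes that overlap these 5 or lie nearest to them passed the test in TET2 CLIP over input. Over all tested rows 8.99% were higher and 5.83% lower, and none of 6 is not set apart from those shares. Col4a1, which encodes the α1 chain of type IV collagen, lies head to head with Col4a2 and shares 85 bases with it. It stood at 21.9 ± 17.4 CPM in TET2 CLIP and 9.55 ± 4.61 CPM in input (SD, n = 4 each), a difference of 1.21 (log2, SE 0.49) that did not pass (adjusted p = 0.102, edgeR). It passed without the first TET2 CLIP library of clone 65 (1.45, adjusted p = 0.0279) and without the first of clone 75 (1.53, adjusted p = 0.0424), but stood at -0.02 without the second TET2 CLIP library of clone 65. The windows around the annotated starts of Col4a2 and Nipa2 are shown because another gene overlaps that start or lies next to it. In each, the 250 bases before the start are in lower case and the first 50 bases of the gene in capitals, read 5′ to 3′ on the gene's own strand, from RefSeq's annotation of GRCm38.p6.
Col4a2, chr8:11312555-11312854, plus strand: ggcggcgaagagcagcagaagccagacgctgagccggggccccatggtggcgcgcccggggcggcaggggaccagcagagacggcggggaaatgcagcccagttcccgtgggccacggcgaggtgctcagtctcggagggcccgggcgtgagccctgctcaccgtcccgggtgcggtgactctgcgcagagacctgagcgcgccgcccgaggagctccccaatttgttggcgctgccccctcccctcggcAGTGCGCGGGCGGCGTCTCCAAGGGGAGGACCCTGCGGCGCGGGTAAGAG
Nipa2, chr7:55962444-55962743, minus strand: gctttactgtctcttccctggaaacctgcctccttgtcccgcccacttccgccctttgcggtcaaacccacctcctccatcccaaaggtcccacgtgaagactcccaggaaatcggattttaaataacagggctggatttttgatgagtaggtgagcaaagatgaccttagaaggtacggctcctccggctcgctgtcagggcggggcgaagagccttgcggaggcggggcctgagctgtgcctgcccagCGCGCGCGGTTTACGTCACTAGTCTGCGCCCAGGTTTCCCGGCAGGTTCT

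The whole Col4a2 window lies within the RefSeq span of Col4a1. It is 73.7% G and C and holds 33 CpG, above 94.9% of the 32851 promoter windows in the table by G and C content. The Nipa2 window is 59.0% G and C with 19 CpG, and the Ros1 window (chr10:52195195-52195494, minus strand) is 41.7% with 4 CpG, while the median window has 52.7% and 7 CpG. Searched on both strands, GGGCGG occurred 3 times in the Col4a2 window and 3 times in the Nipa2 window but not in that of Ros1, and 35.7% of all windows hold it. CCAAT occurred once each in the Col4a2 and Ros1 windows (37.4% of all windows), and TATAAA in none of the 3 (13.6% of all windows). None of these motifs occurred in all 3 windows, and windows of Hsf1 and Plag1 were not analysed here.

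Cyfip1, a partner of the translational repressor FMRP, shares 1368 bases with the far end of Nipa2. It had 67.9 ± 24.1 CPM in TET2 CLIP and 77.1 ± 10.7 CPM in input (SD, n = 4 each), a difference of -0.14 (log2, SE 0.22, adjusted p = 0.727, edgeR). The noncoding gene A230056P14Rik lies 37 bases from the start of Nipa2 and had 2 counts in all TET2 CLIP libraries and 13 in all inputs. Beside Hsf1 lie Bop1, a ribosome biogenesis factor 112 bases away, and Dgat1, an enzyme of triglyceride synthesis 856 bases away. Bop1 stood at 15.7 ± 7.68 CPM in TET2 CLIP and 33.0 ± 3.49 CPM in input (-0.99, adjusted p = 0.0754, edgeR), and it passed as lower in 4 of 13 alternatives, among them those without the first TET2 CLIP library of clone 65 (-1.46, adjusted p = 0.0308) or of clone 75 (-1.66, adjusted p = 0.0256). Dgat1 stood at 29.8 ± 20.9 CPM in TET2 CLIP and 35.7 ± 5.11 CPM in input (-0.42, adjusted p = 0.517, edgeR).

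Chchd7, a mitochondrial protein gene 409 bases from Plag1, had 23.1 ± 11.5 CPM in TET2 CLIP and 12.6 ± 2.79 CPM in input (0.77, SE 0.40, adjusted p = 0.221, edgeR). Mos, on the other side of Plag1, had 2 counts in TET2 CLIP and 22 in input. Around Ros1, 2 pseudogenes within its span (Gm18513 and Gm20630) had no count in any CLIP-part library. Vgll2 had 3 counts in TET2 CLIP and 4 in input, and Dcbld1 stood at 59.7 ± 23.1 CPM in TET2 CLIP and 54.9 ± 9.32 CPM in input (0.05, adjusted p = 0.92, edgeR). The nearest rows of Col4a2 apart from Col4a1, Gm15418 and Rab20, had no count in TET2 CLIP and 1 each in input.

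**Figure D4:**
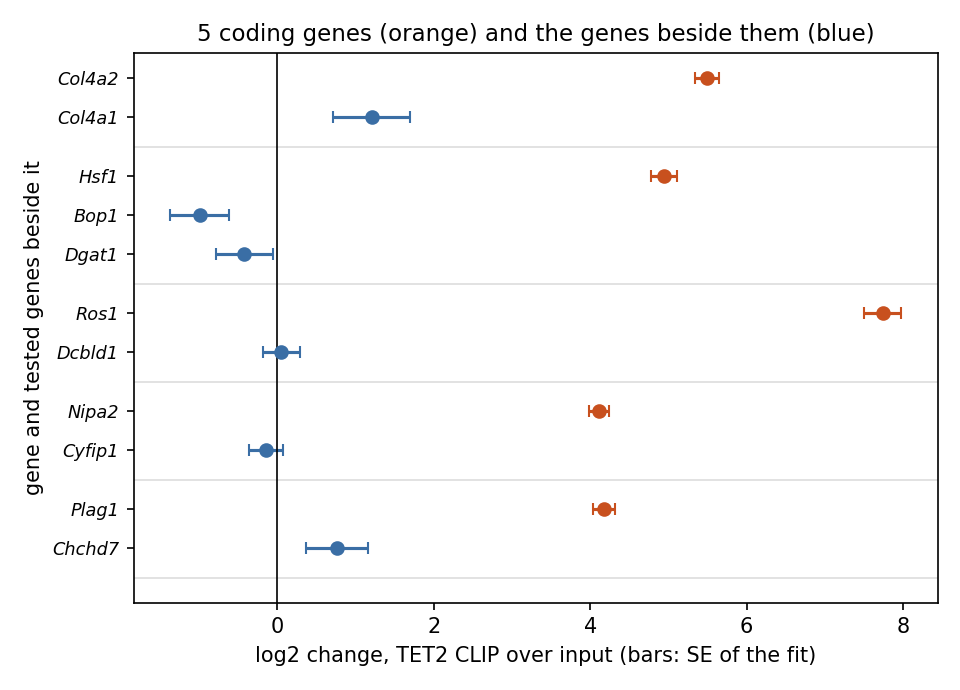
Log2 change of TET2 CLIP over input, with bars of 1 SE, for each of the 5 genes (orange) and for the overlapping or nearest genes that could be tested (blue, below each). The 6 blue points lie between -0.99 (Bop1) and 1.21 (Col4a1), while the orange points lie between 4.11 and 7.74. Orange genes were chosen for large rises in this same comparison, so their place above most other genes was set by that choice. The bar of Ros1, which had few input counts, can understate the error.

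Within 500 kb of the 5 genes, a distance chosen after values were seen, 52 other rows were tested and their median change was -0.18. Of these, 3 were higher in TET2 CLIP, namely Gm6627 near Ros1 (2.37), Mroh1 near Hsf1 (0.98) and Rps20 near Plag1 (0.64, but 0.28 with adjusted p = 0.306 with no count filter). A further 5 were lower, among them Foxh1 near Hsf1 (-4.63, SE 1.18), which rests on 5 counts in TET2 CLIP and 211 in input and ran from -5.07 to -2.82 over the alternatives that tested it. With a term for replicate number in the fit, the lower calls on Slc39a4 near Hsf1 and Herc2 near Nipa2 were lost (adjusted p = 0.0601 and 0.0962, edgeR). Counting that run, the call on Slc39a4 was lost in 5 of 13 alternatives and that on Herc2 in 3. Over all tested rows 8.99% were higher and 5.83% lower, and 3 and 5 of 52 are not set apart from those shares. Whether counting used strand is not given in the sources used here, so reads in the bases shared with Col4a1 and Cyfip1 could come from either gene. Rows without a RefSeq span, which include tRNA genes, were not placed and could lie inside these genes.

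Lists of genes related to each of the 5, by pathway, family or place in the genome, were also read in the same fit. Over all tested rows 8.99% were higher in TET2 CLIP and 5.83% were lower. Of 22 genes listed for basement membranes, the structure that Col4a2 helps build, 18 were tested, and of these none was higher and 9 were lower in TET2 CLIP, with a median change of -0.48 beside -0.03 over all tested rows. The collagen-modifying enzyme P4ha1 fell by 2.36 on the log2 scale, to 47.1 ± 24.8 CPM in TET2 CLIP against 226 ± 106 CPM in input (adjusted p = 3.07e-10, edgeR). The basement membrane glycoprotein Nid2 changed by -0.83, the laminin chain Lama5 by -0.80 and the proteoglycan Hspg2 by -0.69 (adjusted p from 5.88e-06 to 0.000141, edgeR). Sparc and Lama1, both already among those 9 lower genes, were the only 2 tested of 10 extraembryonic endoderm markers (-1.18 and -0.86). The 10 markers summed to 123.8 to 210.2 CPM in TET2 CLIP and 253.3 to 273.9 CPM in input. Afp, another of them, had no count in TET2 CLIP and 8 in input. Of 10 markers of fibroblast feeder cells, 2 were tested. Fn1, which embryonic stem cells also express, was lower (-0.51, adjusted p = 0.00268, edgeR) and Vim was at -0.10, and the list summed to 873.2 to 1465 CPM in TET2 CLIP and 1402 to 1932 CPM in input, with Dcn at 0 counts in TET2 CLIP and 2 in input.

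Of 21 genes listed for the heat shock response 19 were tested, and of these none was higher and 2 were lower in TET2 CLIP, with a median change of -0.13. These counts are not set apart from the shares over all tested rows, 8.99% higher and 5.83% lower. Hspb1, a small heat shock protein that Hsf1 induces, changed by -2.14 (SE 0.61, adjusted p = 0.0136, edgeR) with 7 counts in TET2 CLIP and 244 in input. Hsp90ab1, a constitutive chaperone that binds Hsf1, changed by -0.41 (adjusted p = 0.02, edgeR). The call on Hspb1 was lost without the second clone 75 input (adjusted p = 0.064) and with the DESeq2 Wald test (adjusted p = 0.0583), and its change ran from -4.86 to -1.80 over the alternatives. The call on Hsp90ab1 was lost without either clone 65 input or that same input (0.0627 to 0.0757). The related factor Hsf2 stood at 0.56 and did not pass.

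Of 20 receptor tyrosine kinases and adaptors listed for Ros1, 9 were tested, and of these none was higher and 1 was lower, with a median of 0.10. That gene, the growth factor receptor Igf1r, stood at 41.3 ± 8.91 CPM in TET2 CLIP and 71.3 ± 14.4 CPM in input (-0.81, adjusted p = 0.0214, edgeR), and its call was lost without the first TET2 CLIP library of clone 75 (-0.75, adjusted p = 0.0879). Ltk, a related kinase, stood at 0.60 and the adaptor Grb2 at 0.62, and neither passed. The counts called in this list are not set apart from the shares over all tested rows, 8.99% higher and 5.83% lower.

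Of 21 genes listed for Nipa2 and magnesium transport, 13 were tested, and of these 1 was higher and 1 was lower, with a median of 0.04. The 13 include Cyfip1 and Tubgcp5, which lie near Nipa2 in the genome. Mmgt1, a membrane protein linked to magnesium uptake, was higher by 0.91 (SE 0.31, adjusted p = 0.0447, edgeR). That call was lost in 10 of 13 alternatives, with library size alone (0.78, adjusted p = 0.0893) and without each library in turn apart from the second TET2 CLIP library of clone 75 (adjusted p 0.0918 to 0.581). Cnnm3, a metal transport mediator, fell to 286 ± 42.0 CPM in TET2 CLIP, against 1040 ± 255 CPM in input (-1.86, adjusted p = 2.08e-11, edgeR). Nipal3, a relative of Nipa2, stood at -0.20 and did not pass. The counts called in this list are not set apart from the shares over all tested rows, 8.99% higher and 5.83% lower.

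The PLAG list holds related factors such as Plagl2, genes tied to PLAG1 as targets or partners, and neighbours of Plag1 such as Chchd7. Of its 15 genes 5 were tested, and of these none was higher and 1, again Igf1r, was lower, with a median of -0.17. With 5 genes tested, this is not set apart from the shares over all tested rows, 8.99% higher and 5.83% lower. Plagl2 stood at 0.14 (adjusted p = 0.811) and Hmga2 at -0.19 (adjusted p = 0.824, edgeR). Across the 5 lists, the single listed gene to pass in the upward direction was Mmgt1, and the highest change of any listed gene was 1.21, that of Col4a1.

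**Figure D5:**
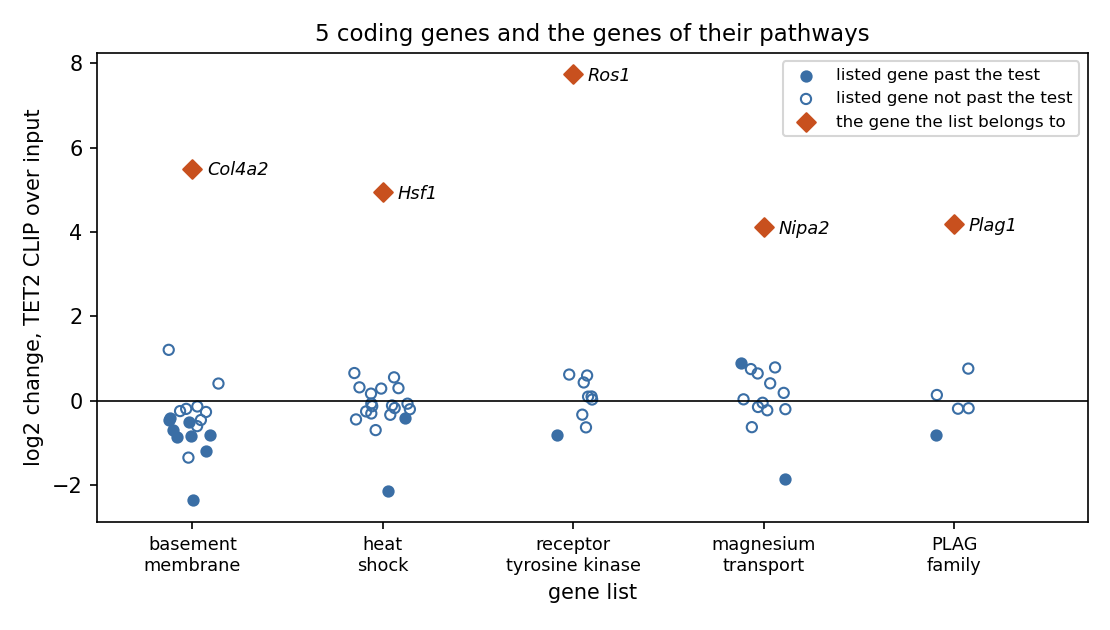
Log2 change of TET2 CLIP over input for the tested genes of each pathway list (blue circles, filled where the adjusted p was under 0.05, spread sideways at random) and for the gene each list belongs to (orange diamonds). The listed genes lie between -2.36 (P4ha1) and 1.21 (Col4a1), below the 4.11 to 7.74 of the 5 genes. The 5 genes were chosen for their rise in this comparison, which by itself sets them above most other genes.

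Across the 8 CLIP-part libraries the 5 genes had much the same profile, with Pearson r from 0.984 (Ros1 and Nipa2) to 0.999 (Nipa2 and Plag1) in log2 CPM. These 8 points share 1 split between TET2 CLIP and input, which fixes most of that likeness. The rows most like Col4a2 were n-R5s167 (r = 0.998), Gm26197 (0.996) and Hsf1 (0.996). Those most like Hsf1 were Gucy2e (0.998), Nav2 (0.997) and Col4a2 (0.996). Ros1 was closest to the small nuclear RNA genes Gm25939 and Gm24525 (0.996 each) and the tRNA gene chr6.tRNA107-ArgCCT (0.995). Nipa2 and Plag1 were each other's nearest row, followed by Prss38 for both (0.997 with Nipa2 and 0.998 with Plag1).

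The hm5C RIP libraries ask whether RNA carrying the modified base includes these transcripts, in cells and libraries apart from the CLIP part. There the 5 genes had few counts. In hm5C RIP, counts in the 2 libraries were 4 and 6 for Col4a2, 1 and 2 for Hsf1, 0 and 1 for Ros1, 6 and 0 for Nipa2 and 0 and 0 for Plag1. In RIP input they were 1 and 2 for Col4a2, 3 and 6 for Hsf1, 1 and 2 for Ros1, 1 and 1 for Nipa2 and 2 and 1 for Plag1. The 5 genes summed to 20 counts in each group, which is 5.46 CPM of all counts in hm5C RIP (95% Clopper-Pearson interval 3.33 to 8.43) and 2.10 CPM of all counts in RIP input (1.28 to 3.24). These intervals cover counting error only, and 10 of the 20 counts in hm5C RIP were of Col4a2. Col4a2 alone stood at 2.73 CPM of all counts in hm5C RIP (1.31 to 5.02) and 0.315 CPM of all counts in RIP input (0.0649 to 0.92). These 2 intervals do not overlap, while those of Hsf1, Ros1, Nipa2 and Plag1 do. They leave out the spread between libraries, which over better counted rows was far beyond counting error. Its chi-square per degree of freedom was 12.9 in hm5C RIP and 14.2 in RIP input. The intervals can thus be too narrow, and the gap for Col4a2 is not read as a difference.

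None of the 5 had enough counts to enter the RIP test, in which 51.9% of 2081 rows differed in either direction. Without the filter on low counts, adjusted p was 0.542 for Col4a2, 0.716 for Hsf1, 0.80 for Ros1 and 0.713 for Nipa2 and Plag1 (edgeR). The row of Acsl6 took 55.2% and 60.6% of all hm5C RIP counts, against 0.255% and 0.167% in RIP input. With each library's most counted row left out of its total (Acsl6 in hm5C RIP, Snord43 in RIP input), the 5 genes' share was 0.00157% and 0.00109% in hm5C RIP and 0.000205% and 0.000287% in RIP input. With that row counted, it was 0.000703% and 0.000429% in hm5C RIP and 0.000172% and 0.000245% in RIP input. By raw count Hsf1, at the top of the protein-coding rows in TET2 CLIP, ranked 5007 and 4228 in hm5C RIP and 3348 and 2080 in RIP input.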

How the data were processed

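The authors deposited raw read counts per gene, whole numbers with differing column sums, for 8 CLIP-part and 4 RIP-part libraries. Genome build mm10 and the tools Bowtie2 2.2.6, STAR 2.5.3a, cutadapt and UMI-tools are named per the submitters' processing notes. The sources used here do not give the counting tool, the annotation or the use of strand.

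From these counts, edgeR 4.0.16 (R 4.3.3) gave TMM factors, filterByExpr, a robust quasi-likelihood fit and Benjamini-Hochberg adjustment over all tested rows, at a threshold of 0.05. CLIP was fitted over 8 libraries in 4 groups and RIP over 4. Of 53900 rows, 10334 entered the CLIP test and 2081 the RIP test. Means and SD are of CPM from those factors, and SE is the log2 change over the root of F. For Ros1, with few input counts, that SE can be too small. TET2 CLIP libraries held the fewest counts. The p-values measure spread between 2 cultures a group. The fit was tested on simulated data. Names, biotypes, spans and promoter windows came from RefSeq (GRCm38.p6), matched by Ensembl ID or symbol, and 38180 rows had a span. The main fit did not pair libraries by replicate number, and deviations of same-numbered libraries had correlations of -0.008 and 0.018 in CLIP. Counting error weighs on that correlation, so it cannot show whether such libraries shared a culture. Alternatives were DESeq2 1.42.0 size factors and Wald test, library size alone, no count filter, a replicate block, and each library left out.

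Genes named were the 5 genes, rows overlapping or nearest them, the 3 rows most like each (log2 CPM with a prior count of 2), the next 5 protein-coding rows by p, and up to 4 genes of each list with the smallest p. Some other list members are named as examples and were chosen after their values were seen. The 5 genes and the lists were chosen with earlier results of these data known. The small RNA libraries were not used here.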

Additional observations from a re-analysis of the deposited data

Results flagged for a closer look

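For 4 of the 5 genes, the change of TET2 CLIP over input differed between the clones by the test of that difference itself (edgeR, adjusted p under 0.05). Clone 75 minus clone 65 was -2.17 for Col4a2, -1.99 for Hsf1, -1.37 for Nipa2 and -1.16 for Plag1 on the log2 scale. Both libraries of clone 75 lay below both of clone 65 for each of these genes in TET2 CLIP. Of all tested rows, 2.22% had a smaller change in clone 75, and of the 380 other protein-coding rows raised in TET2 CLIP 11.8% did, with 81.1% below 0. Of the 9 other protein-coding rows whose change was at least that of Nipa2, all 9 lay below 0, with a median of -2.49, and 1 passed. The direction and size of the difference are therefore not particular to these genes. The call on Plag1 was lost in 9 alternatives and that on Nipa2 in 3.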

How the results depend on the processing

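The change of TET2 CLIP over input ran over the alternatives from 5.13 to 5.54 for Col4a2, 4.57 to 4.96 for Hsf1 and 7.38 to 8.12 for Ros1. It ran from 3.75 to 4.14 for Nipa2 and 3.82 to 4.24 for Plag1. The 5 genes were chosen for large rises in this contrast, so its positive sign in every run was set by that choice. None of the 5 genes changed sign in the clone difference or between inputs. The more frequent direction of calls did turn in the CLIP contrasts, as given next. Rows called in CLIP numbered 1531, and 2678 with no count filter (807 higher, 1871 lower, beside 929 and 602); with library size alone the split was 808 and 922, and the median of all rows lay at -0.15 in CLIP and -0.34 between inputs. Rows whose change differed between clones numbered 263 (34 higher, 229 lower in clone 75), 742 with library size alone (638 and 104), and 87 to 372 with a library left out. Input rows differing between clones numbered 713 (517 and 196), 1801 with library size alone (242 and 1559), 328 with DESeq2's Wald test, 408 with a replicate block, and 138 to 1075 with a library left out. RIP calls numbered 1080 (686 and 394), 1774 without the Acsl6 row and with library size alone (1686 and 88), and 647 to 1385 with a library left out. The 5 genes' share of input counts was 0.0206%, and 0.0285% without the most counted row, which takes part of the total away by construction. Under the replicate block, Plag1's clone difference was -1.13 (adjusted p = 0.0673, edgeR) and Col4a2's input difference 0.87 (adjusted p = 0.0575, edgeR); it ended no other call on the 5 genes, and among listed genes it ended those on Mmgt1 (0.214), Igf1r (0.0614), Hsp90ab1 (0.055) and Agrn (0.0543). The heat shock list's count of lower genes ran from 0 to 6 with a library left out. Except where given, the cause was not tested. Counts were few for Ros1 in input and for all 5 genes in RIP, which limited what could be read there.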
